A study of Mus musculus with 8 samples.

Results

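The annexins are a family of proteins that bind negatively charged membrane phospholipids when calcium is present. The 10 members described here are Anxa1, Anxa2, Anxa3, Anxa4, Anxa5, Anxa6, Anxa7, Anxa9, Anxa11 and Anxa13, taken by gene symbol from the 23318 Ensembl genes that were measured in every library. All 10 symbols matched 1 identifier each. The libraries were made with a TruSeq RNA kit from total RNA of mouse small intestinal epithelium, depleted of cells positive for CD45, a leukocyte antigen, or for Ulex europaeus lectin binding. The 4 CD24Mid libraries (title numbers 1, 3, 5 and 7) came from cells with intermediate levels of the surface protein CD24, also called CD24low by the submitters. The 4 CD24Neg libraries (title numbers 2, 4, 6 and 8) came from cells sorted as negative for it. The series text calls the 4 libraries of a fraction biological replicates, but these sources do not give mouse strain, age or number of animals.

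Every annexin is built around a conserved core of repeats that carries the calcium and lipid binding sites, and the members differ mainly in their N-terminal tails. The tail of Anxa2 holds S100a10, a small protein of the S100 family, and the complex bridges membranes to the cortical actin cytoskeleton. Anxa13, known chiefly from the intestine and kidney, is anchored to membranes by a fatty acid and takes part in traffic to the apical surface in cultured kidney cells. In the epithelium of the intestine, annexins are found along the brush border and on endosomes.

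The fractions followed their labels. Cd24a, which encodes CD24, averaged 2820 ± 622 in CD24Mid libraries and 414 ± 122 in CD24Neg libraries (SD, n = 4 each). Values are the authors' normalised expression values per gene, not per length, and every mean below is given with its SD over 4 libraries. Epithelial markers were present in both fractions, and all 7 of 7 listed genes could be tested. Of these, 1 was higher in CD24Mid (Krt18) and 3 were lower (Krt8, Cldn7 and Vil1) at an adjusted p under 0.05. Among all tested genes 34.3% were higher and 34% lower. Vil1 was 6.39-fold lower in CD24Mid, and Epcam, Cdh1 and Krt19 did not pass. The 8 stem cell markers summed to 0.424 to 0.573% of nuclear-gene values for CD24Mid, against 0.0187 to 0.0417% for CD24Neg. The 8 enterocyte markers summed to 0.138 to 0.237% for CD24Mid, against 2.98 to 4.86% for CD24Neg. CD24Mid was not high in stem cell markers alone: the 7 enteroendocrine markers summed to 0.0324 to 0.076% for CD24Mid, against 0.00684 to 0.00989% for CD24Neg. Estimated depth was 17.4 to 19.6 M reads for CD24Mid libraries, against 12.6 to 20.6 M for CD24Neg libraries, and mitochondrially encoded genes took 8.03 to 9.10% of values in CD24Mid, against 28.3 to 37.4% in CD24Neg. The part of these differences in the annexin values was not tested. These are bulk libraries, so fewer cells of a type and less RNA per cell cannot be told apart.

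The annexins did not move as 1 block: 5 were called lower in CD24Mid, 1 was called higher and the others were not called. The limma fit on log2(value + 0.5), CD24Mid minus CD24Neg, covered the 12906 genes that reached 10 in 4 or more libraries, and 9 of the 10 members were among them. Anxa2, Anxa3, Anxa4, Anxa9 and Anxa13 fell, Anxa5 rose, and Anxa6, Anxa7 and Anxa11 did not pass the threshold (adjusted p of 0.05, Benjamini-Hochberg over all genes tested). Anxa1 was too low to be tested. Of all tested genes, 68.3% passed, 34.3% as higher and 34% as lower in CD24Mid, so 6 calls among 9 members is close to the share in the background. The libraries of the fractions did not overlap for the 6 called members, 1 of them higher and 5 lower in CD24Mid. Among all tested genes 63.8% did not overlap, 32.1% being higher and 31.8% lower in CD24Mid. Anxa9 passed the filter only through its CD24Neg values, so its call says nothing of the direction of the family. Among the other 8 members 4 were called lower and 1 higher, and their log2 fold changes had a median of -0.46, against 0.01 for the 12447 tested genes that did not pass through 1 fraction alone.

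**Figure D1:**
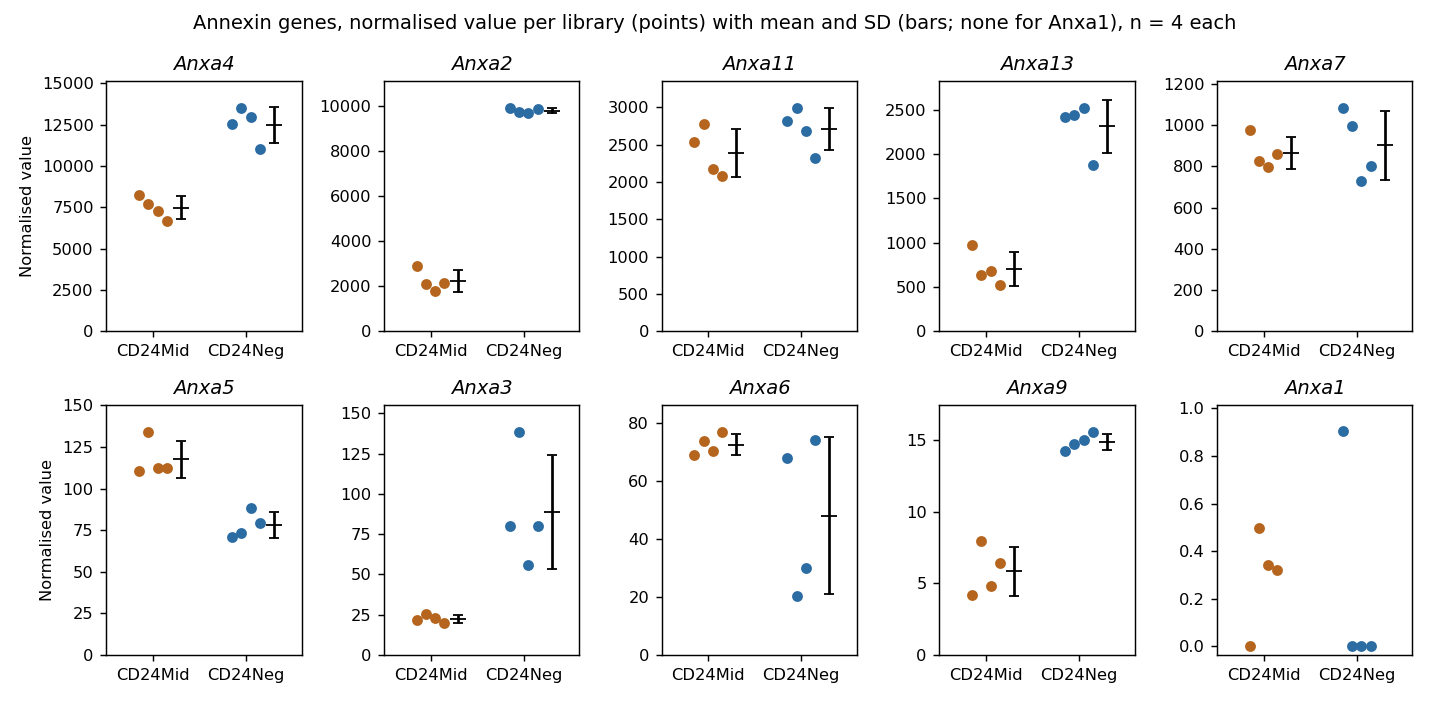
Normalised value of each annexin gene in every library (points, linear vertical axis in normalised units, 1 panel per gene, CD24Mid left in brown and CD24Neg right in blue) with mean and SD as black bars except for Anxa1. Anxa2 lies between 1771 and 2912 in CD24Mid and between 9693 and 9930 in CD24Neg, while the points of Anxa7 and Anxa11 overlap between fractions.

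Anxa2 had the largest change among the members. Its value was 2912, 2082, 1771 and 2138 in CD24Mid libraries 1, 3, 5 and 7, against 9930, 9757, 9693 and 9862 in CD24Neg libraries 2, 4, 6 and 8. All CD24Mid libraries lay far below all CD24Neg libraries, and library 1 was the highest of its fraction. The means were 2226 ± 485 in CD24Mid and 9810 ± 106 in CD24Neg, a log2 fold change of -2.16 (SE 0.14, limma adjusted p = 9.08e-07), or 4.48-fold lower in CD24Mid. The SD was 21.8% of the mean in CD24Mid and 1.08% in CD24Neg. Library 1 also had the largest sum of enterocyte markers in CD24Mid, 0.237% against 0.138 to 0.186% in the other 3 libraries, and the part of this in the Anxa2 value was not tested.

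Anxa4, an annexin of polarised epithelia, also fell. Its value was 8265, 7716, 7289 and 6643 in CD24Mid and 12525, 13515, 12931 and 10998 in CD24Neg. The fractions did not overlap, and the spread was similar in both, with an SD of 9.17% of the mean in CD24Mid and 8.61% in CD24Neg. The log2 fold change was -0.74 (SE 0.12, limma adjusted p = 0.000242), which is 1.67-fold lower in CD24Mid. With quantile normalization the difference kept its direction but not its call (log2 fold change -0.21, limma adjusted p = 0.0759, 0.00024 to 0.227 across the 18 alternatives).

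The promoters of Anxa2 and Anxa4, the pair of members with the highest values that fell together, and of Anxa5, the member that rose, are printed to show how their start regions differ. RefSeq promoter windows (build GRCm38.p6, 250 bases before to 50 bases after the annotated start) were found for 7 of the 10 members. The submitters' processing notes name NCBIM37 for the reads, and no coordinate was carried between builds. Capitals mark the motifs searched, on both strands. The TATA box was searched as TATAAA and the Sp1 box as GGGCGG. The site of the factor AP-1 was searched as TGANTCA, that of the Gata factors as AGATAA, that of the factor Hnf4 as CAAAGTCCA and that of the Cdx factors as TTTATG. Anxa2 lies at chr9:69453433-69453732 on the plus strand, Anxa4 at chr6:86793535-86793834 on the minus strand (the first of 2 annotated windows) and Anxa5 at chr3:36475838-36476137 on the minus strand.
Anxa2: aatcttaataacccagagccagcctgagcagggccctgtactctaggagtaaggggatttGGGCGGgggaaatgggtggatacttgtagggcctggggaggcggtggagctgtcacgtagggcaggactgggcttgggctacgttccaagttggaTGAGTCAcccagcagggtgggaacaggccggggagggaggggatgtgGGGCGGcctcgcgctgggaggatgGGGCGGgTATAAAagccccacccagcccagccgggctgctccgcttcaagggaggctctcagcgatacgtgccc
Anxa4: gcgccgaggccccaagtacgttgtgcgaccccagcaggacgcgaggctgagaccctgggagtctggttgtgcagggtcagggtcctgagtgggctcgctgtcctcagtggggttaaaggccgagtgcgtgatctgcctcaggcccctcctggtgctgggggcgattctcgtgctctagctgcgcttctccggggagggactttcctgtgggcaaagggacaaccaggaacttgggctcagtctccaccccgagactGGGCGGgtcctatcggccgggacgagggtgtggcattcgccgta
Anxa5: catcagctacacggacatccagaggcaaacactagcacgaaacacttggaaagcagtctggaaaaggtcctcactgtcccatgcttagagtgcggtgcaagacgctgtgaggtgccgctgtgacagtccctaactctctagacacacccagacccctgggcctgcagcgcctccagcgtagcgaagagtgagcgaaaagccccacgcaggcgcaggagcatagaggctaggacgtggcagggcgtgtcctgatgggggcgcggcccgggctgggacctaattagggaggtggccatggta
The Anxa2 window held 1 TATA box, 1 AP-1 match and 3 Sp1 boxes, with no 2 of them overlapping. The Anxa4 window held 1 Sp1 box, the Anxa5 window held none of the 6 motifs, and the second Anxa4 window (chr6:86775065-86775364, not printed) held 1 match to the Gata motif. Among all 32851 windows, 13.6% held TATAAA, 35.7% GGGCGG, 7.81% TGANTCA, 11.2% AGATAA, 0.475% CAAAGTCCA and 11.9% TTTATG. CpG dinucleotides, where cytosine methylation and hydroxymethylation mostly occur, numbered 13 in the Anxa2 window, 20 in the printed Anxa4 window and 16 in the Anxa5 window, and the median over all windows was 7. Of all windows, 62.1% held fewer than the Anxa2 window, 73.5% fewer than the printed Anxa4 window and 67% fewer than the Anxa5 window. The second Anxa4 window held 3, and 23.3% of all windows held fewer. A match is a description of these letters only, and the libraries hold no measurement of the promoters.

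Anxa13 also fell. It had values of 972, 639, 681 and 525 in CD24Mid and 2416, 2442, 2522 and 1874 in CD24Neg. Every CD24Mid library lay below every CD24Neg library, and library 1 was again the highest in CD24Mid. The log2 fold change was -1.74 (SE 0.18, limma adjusted p = 1.45e-05), which is 3.35-fold lower in CD24Mid. The annotation used for lengths lists Anxa13 as a processed transcript, not as a protein-coding gene.

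Anxa3, a member present at far lower values, fell as well. Its value was 21.5, 25.3, 22.9 and 19.8 in CD24Mid and 79.9, 139, 55.5 and 80.2 in CD24Neg. The CD24Mid libraries were close together, while CD24Neg library 4 was the highest and library 6 the lowest of that fraction. The log2 fold change was -1.89 (SE 0.28, limma adjusted p = 0.000189), which is 3.70-fold lower in CD24Mid. The sum of 7 goblet cell markers was 0.496 to 0.718% in CD24Mid. In CD24Neg it was also highest in library 4, at 3.39%, and lowest in library 6, at 1.17%. The sums of Paneth cell, enteroendocrine and plasma cell markers were likewise highest in library 4 and lowest in library 6 of CD24Neg. The pattern is thus not particular to goblet cell markers. Anxa3 was alike in CD24Neg libraries 2 and 8, where the goblet sums were 2.71 and 1.56%. The part of any of these markers in the Anxa3 values was not tested.

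Anxa9, whose human protein has lost residues used for calcium binding in other annexins, was near the limit of detection. Its value was 4.17, 7.97, 4.83 and 6.40 in CD24Mid and 14.2, 14.8, 15.01 and 15.6 in CD24Neg. The fractions did not overlap in normalised values (log2 fold change -1.32, SE 0.35, limma adjusted p = 0.00746). In units of the step between low values, which approximates 1 read, these values rest on 5.97 to 11.9 steps across CD24Mid, compared with 8.02 to 14.0 steps across CD24Neg, which overlap before scaling between libraries. With the test against a fold change of 1.5 in place of no change, its call ended (limma adjusted p = 0.0834, range over 18 alternatives 0.000319 to 0.0834).

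Anxa5, which binds exposed phosphatidylserine and is used as a stain for dying cells, was the called member that rose. It had values of 111, 134, 113 and 113 in CD24Mid and 70.7, 73.4, 88.3 and 79.1 in CD24Neg. All CD24Mid libraries lay above all CD24Neg libraries. The means were 118 ± 11.2 in CD24Mid and 77.9 ± 7.79 in CD24Neg, a log2 fold change of 0.59 (SE 0.15, limma adjusted p = 0.00588), or 1.51-fold higher in CD24Mid. With quantile normalization the log2 fold change was 0.33 and the call ended (limma adjusted p = 0.0892, 0.000156 to 0.828 across the 18 alternatives).

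**Figure D2:**
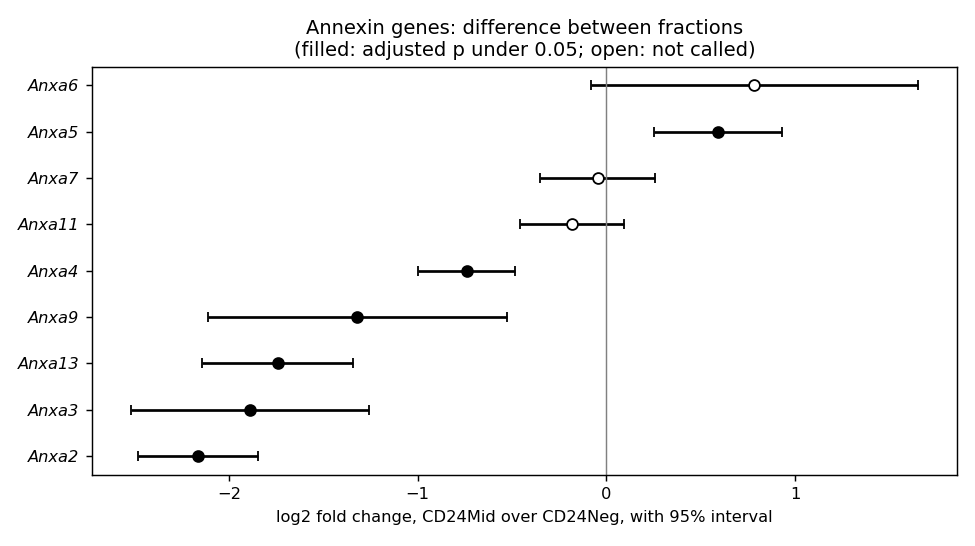
Log2 fold change of each tested annexin gene, CD24Mid over CD24Neg (horizontal axis), with its 95% interval. Filled points passed an adjusted p of 0.05, open points did not. Anxa5 is the filled point right of 0, at 0.59, and Anxa2 lies farthest left, at -2.16.

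Anxa6, an annexin with a duplicated core that acts on endosomes, split the CD24Neg libraries. Its value was 68.9, 73.8, 70.2 and 77.0 in CD24Mid and 68.0, 20.2, 29.9 and 74.0 in CD24Neg libraries 2, 4, 6 and 8. CD24Neg libraries 2 and 8 lay at the level of CD24Mid, and libraries 4 and 6 lay well below it. The SD was 5.07% of the mean in CD24Mid and 56.1% in CD24Neg, and the difference did not pass (log2 fold change 0.78, 95% interval -0.08 to 1.65, limma adjusted p = 0.0973). The sum of 13 leukocyte markers with a row, of 15 listed, was 0.00412 to 0.00841% of nuclear-gene values in CD24Mid. In CD24Neg it was 0.0603, 0.00386, 0.00978 and 0.0484% in libraries 2, 4, 6 and 8. The same libraries 2 and 8 were thus high in Anxa6 and in the sum of these markers. None of the 13 leukocyte markers was at 0 in all 8 libraries. Cd3e, a T cell receptor subunit, had values of 5.29 to 23.0 in CD24Mid and of 326, 19.8, 61.2 and 260 in CD24Neg libraries 2, 4, 6 and 8. Of the 13 markers, 3 were higher (Lyz2, Csf1r and Cd14) and 6 lower in CD24Mid, beside 34.3% higher and 34% lower among all tested genes. The 6 lower were Cd3e, Cd3g, Cd8a, Gzma, Gzmb and Itgae. Gzma weighed most in the CD24Neg sums, with 3889, 212, 549 and 2742 in libraries 2, 4, 6 and 8. The sum therefore does not stand for all leukocyte markers alike.

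CD24Neg libraries 2 and 8 hold the highest Anxa6 values of their fraction, so leaving them out raises the Anxa6 difference by construction and is no test of it. Without both, the log2 fold change was 1.52 (limma adjusted p = 0.000661). The threshold was also passed without library 2 alone (1.001, limma adjusted p = 0.0412), without library 8 alone (1.05, limma adjusted p = 0.0327), with libraries scaled to totals without the 20 most abundant genes (1.21, limma adjusted p = 0.0227) and with depth weights from voom (0.82, limma adjusted p = 0.0464), within a range of adjusted p of 0.000661 to 0.585 over 18 alternatives. The part of the leukocyte markers in the Anxa6 values was not tested. The 5 called decreases and the increase of Anxa5 were all called without libraries 2 and 8 too, with Anxa5 at a log2 fold change of 0.51 (limma adjusted p = 0.0363). Plasma cell markers, 5 of 6 listed with a row, had sums of 0.0534 to 0.138% across CD24Mid, compared with 0.00203 to 0.00502% across CD24Neg. All 4 of 4 tested plasma cell genes were called higher in CD24Mid, beside 34.3% of all tested genes. Mzb1 and Derl3 among them passed the filter only through CD24Mid, so their direction was fixed by the filter. The part of the plasma cell markers in the annexin values was not tested. The 6 endothelial markers summed to at most 0.000702% in CD24Mid and 0.000429% in CD24Neg, and the 9 fibroblast and smooth muscle markers to at most 0.000188% in CD24Mid and 0.00042% in CD24Neg.

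**Figure D3:**
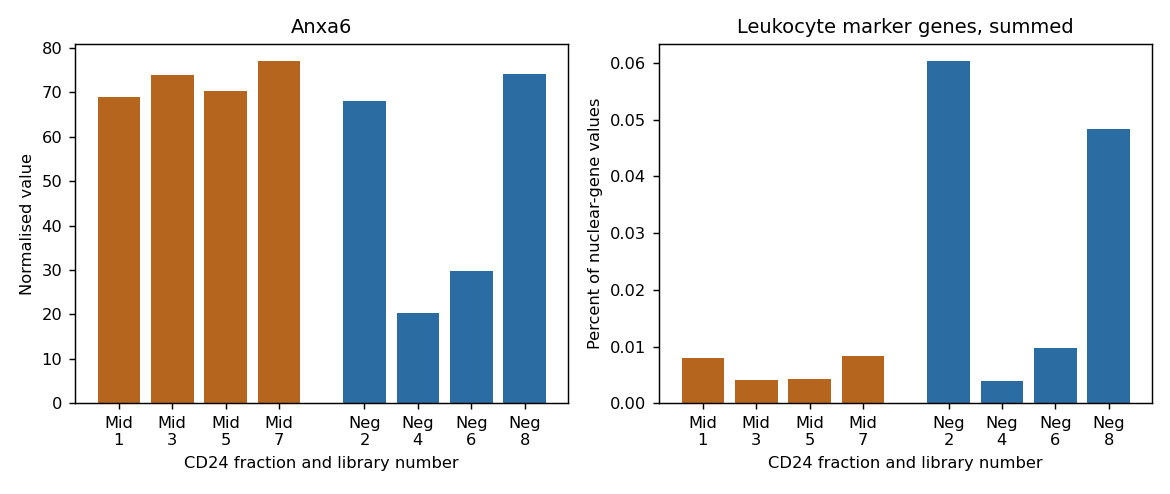
Normalised value of Anxa6 (left) and summed leukocyte markers as percent of nuclear-gene values (right) in each library, with CD24Mid bars in brown and CD24Neg bars in blue. CD24Neg libraries 2 and 8 carry Anxa6 at 68.0 and 74.0 and leukocyte markers at 0.0603 and 0.0484%, above CD24Neg libraries 4 and 6 in both panels.

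Anxa7 and Anxa11, annexins with long tails that bind the calcium sensor ALG-2, did not differ detectably. Anxa7 had values of 975, 825, 797 and 862 in CD24Mid and 1084, 994, 727 and 801 in CD24Neg. Its log2 fold change was -0.05 with a 95% interval of -0.35 to 0.26 (limma adjusted p = 0.777). Anxa11 had values of 2531, 2778, 2173 and 2086 in CD24Mid and 2814, 2994, 2686 and 2328 in CD24Neg. Its log2 fold change was -0.18 with a 95% interval of -0.46 to 0.09 (limma adjusted p = 0.214). The fractions overlapped for both genes. With libraries scaled to totals without the 20 most abundant genes, where the median of all tested genes was 0.44 in place of 0.02, the log2 fold changes turned to 0.38 for Anxa7 (limma adjusted p = 0.0386) and 0.25 for Anxa11 (limma adjusted p = 0.0738), both below that median. Under the same scaling 69.6% of all calls were higher in CD24Mid, in place of 50.2%.

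Anxa1, whose protein acts on formyl peptide receptors of leukocytes, was listed at 0 in CD24Mid library 1 and in CD24Neg libraries 4, 6 and 8. Its other values were 0.497, 0.343 and 0.320 in CD24Mid libraries 3, 5 and 7 and 0.907 in CD24Neg library 2, each below 1 step. Anxa8 and Anxa10, the annexins outside the 10 members, were at or near 0 as well. The highest value of Anxa8 was 0.401 in CD24Mid and 0 in CD24Neg, and that of Anxa10 was 0.436 in CD24Mid and 1.17 in CD24Neg. None of these could be tested, and no difference was detectable at this depth.

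Compared per kilobase of transcript, a few members made up nearly all annexin transcripts. Values were divided by the length of the longest protein-coding transcript, or of the longest transcript for Anxa13. In CD24Mid the order was Anxa4 (3684 ± 338 per kb), Anxa2 (1538 ± 335), Anxa11 (999 ± 134), Anxa13 (587 ± 158) and Anxa7 (298 ± 26.9). In CD24Neg it was Anxa2 (6780 ± 73.0 per kb), Anxa4 (6154 ± 530), Anxa13 (1926 ± 247), Anxa11 (1130 ± 118) and Anxa7 (311 ± 57.1). With these lengths, the libraries of neighbours in this order did not overlap in either fraction. The order depends on the length used. With merged exon lengths, Anxa2 (475 to 781 per kb), Anxa11 (504 to 672) and Anxa13 (390 to 721) overlapped in CD24Mid, and Anxa2 overlapped Anxa4 in CD24Neg. The other 5 members together held 1.28 to 1.74% of the summed level in CD24Mid and 0.636 to 0.883% in CD24Neg. Among these 5, Anxa5 stood above Anxa6 and Anxa6 above Anxa3 in CD24Mid, each without overlap of the libraries, whereas in CD24Neg the libraries of Anxa3 and Anxa5 overlapped.

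The make-up of the family thus differed between the fractions. Anxa4 made up 51.2% ± 2.21 of the summed level in CD24Mid and 37.4% ± 1.39 in CD24Neg. Anxa2 made up 21.2% ± 2.66 in CD24Mid and 41.4% ± 2.47 in CD24Neg. Anxa11 held 13.9% ± 1.36 in CD24Mid and 6.87% ± 0.377 in CD24Neg, and Anxa13 held 8.04% ± 1.30 in CD24Mid and 11.7% ± 0.995 in CD24Neg. With merged exon lengths the share of Anxa13 was 14.6% in CD24Mid and 21.6% in CD24Neg. The summed level was 6467 to 8394 per kb across CD24Mid, compared with 15176 to 17172 per kb across CD24Neg. The deposited values of all genes also summed to less in CD24Mid, 1.14e+07 to 1.22e+07, compared with 2.10e+07 to 2.24e+07 in CD24Neg. The summed annexin level is therefore not a share of all transcripts, and the part of these totals in it was not tested. These are descriptions without a test. The ratio of Anxa4 to Anxa2 per kb was 2.02 to 2.93 across CD24Mid, compared with 0.795 to 0.987 across CD24Neg. With the length of all merged exons in place of the transcript length it was 2.28 to 3.30 across CD24Mid, compared with 0.896 to 1.11 across CD24Neg, so which of the pair is higher in CD24Neg depends on the length used.

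**Figure D4:**
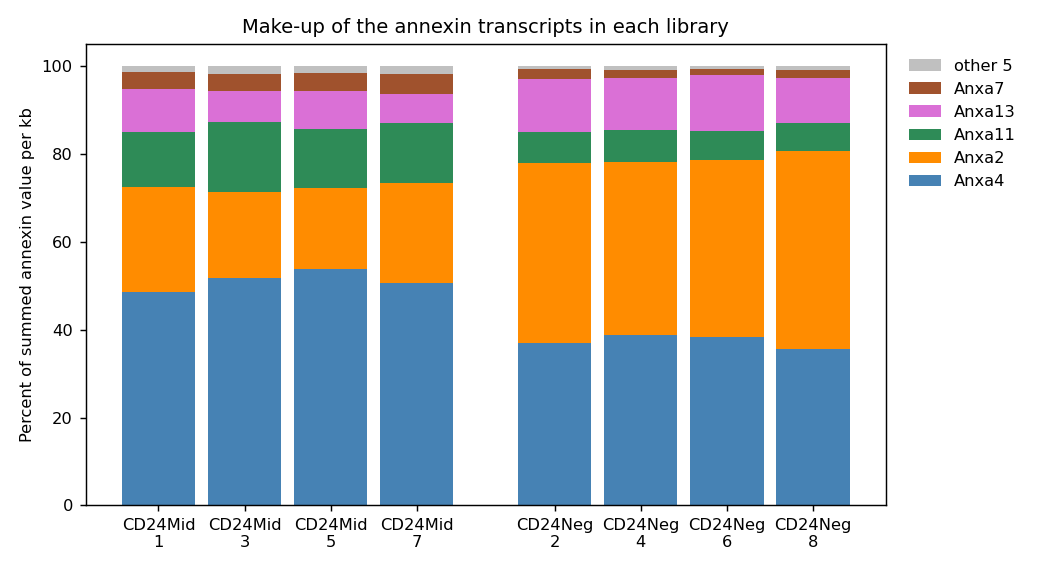
Share of each annexin in the summed annexin value per kb (vertical axis, percent, bars stacked to 100%) in the 4 CD24Mid libraries (left) and the 4 CD24Neg libraries (right). Anxa4 is the lowest band, with a mean of 51.2% in CD24Mid and 37.4% in CD24Neg, and the Anxa2 band has a mean of 21.2% in CD24Mid and 41.4% in CD24Neg.

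Partner genes have products that bind annexins, act on the same membrane events or belong to a family with such members. They were described by 7 lists with 74 different genes. Of these, 53 could be tested, of which 29 were lower and 4 higher in CD24Mid, set beside 34% lower and 34.3% higher among all tested genes, with a median log2 fold change of -0.63 against 0.02 for all tested genes. Without Plscr4, which passed the filter only through CD24Neg, 28 of 52 were lower and the median was -0.62. When libraries were scaled to totals that leave out the 20 most abundant genes, 11 were higher and 22 lower, beside 6497 higher and 2842 lower of all 12906 tested genes.

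S100 proteins, a family of small proteins of which some dock on annexin tails, had 8 testable genes of 12 listed. Of these, 5 fell, 1 rose and 2 did not pass (median -1.33), beside 34% lower and 34.3% higher among all tested genes. S100a10, the partner of Anxa2, had values of 2259, 1937, 1591 and 1664 in CD24Mid and 4739, 4658, 4456 and 4350 in CD24Neg. It fell together with Anxa2, but its log2 fold change of -1.30 (SE 0.12, limma adjusted p = 7.07e-06) was of smaller size than that of Anxa2, and the difference between these fold changes was not tested. S100a6 was 7.34-fold lower in CD24Mid (134 ± 42.4 against 1034 ± 493 in CD24Neg). S100a1 and S100a13 were 2.58-fold and 2.84-fold lower. S100a11, the partner of Anxa1, had 476 ± 78.05 in CD24Mid and 341 ± 88.3 in CD24Neg. Its fractions overlapped, and its call (log2 fold change 0.51, limma adjusted p = 0.049) ended in 9 of 18 alternatives, with a range of adjusted p of 0.00316 to 1. The alternatives that ended it include leaving out CD24Mid library 1, 3 or 7 or CD24Neg library 6 or 8.

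The list of the plasminogen system and the Anxa2-S100a10 scaffold had 5 testable genes of 8. Of these, 3 fell and none rose (median -1.23), beside 34% lower and 34.3% higher among all tested genes. Ahnak, a giant scaffold protein that binds the Anxa2-S100a10 complex, had values of 869, 488, 944 and 682 in CD24Mid and 3775, 5300, 5692 and 4331 in CD24Neg. It was 6.52-fold lower in CD24Mid without overlap (log2 fold change -2.70, SE 0.21, limma adjusted p = 2.37e-06). Plgrkt, a plasminogen receptor, was 2.34-fold lower, and Plaur, the urokinase receptor, had 17.4 ± 5.02 in CD24Mid and 27.1 ± 6.93 in CD24Neg (limma adjusted p = 0.111). It passed with quantile normalization (limma adjusted p = 0.0424) and without CD24Neg library 8 (limma adjusted p = 0.0388, range over 18 alternatives 0.0388 to 0.794).

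Anxa7 and Anxa11 themselves did not pass. In the list of their ALG-2 and sorcin partners 5 of 7 genes fell (median -0.80), beside 34% lower among all tested genes. Pdcd6, which encodes ALG-2, had 919 ± 87.0 in CD24Mid and 2338 ± 219 in CD24Neg, 2.54-fold lower in CD24Mid (limma adjusted p = 2.27e-06). Pef1, which pairs with ALG-2, was 1.82-fold lower, and Sec31a, a COPII coat protein bound by ALG-2, 2.50-fold lower (3299.7 ± 156 in CD24Mid against 8263 ± 592 in CD24Neg). Tsg101, a subunit of the ESCRT-I complex, was 1.74-fold lower. Of 13 testable genes of calcium-dependent membrane repair, out of 15 listed, 9 fell and none rose, with a median of -0.65. The shares among all tested genes were 34% lower and 34.3% higher. The ESCRT-III genes Chmp2a and Chmp4b were 2.06-fold and 1.62-fold lower, and the calpain gene Capn1 was 1.57-fold lower (1878 ± 209 in CD24Mid against 2936 ± 94.5 in CD24Neg). The calls of Chmp4b and Capn1 ended with quantile normalization (limma adjusted p = 0.0759 and 0.151).

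Annexins bind phosphatidylserine, a lipid that scramblases expose and flippases return to the inner leaflet. Of 13 testable genes for these enzymes, of 14 listed, 7 fell and 1 rose, beside 34% lower and 34.3% higher among all tested genes. Plscr4, a scramblase family member counted among the 7 and named after its values were seen, had 3.70 ± 1.40 in CD24Mid and 63.9 ± 41.8 in CD24Neg, and without it 6 of 12 fell, with a median of -0.53. The scramblase genes Ano6 (1769.6 ± 244 in CD24Mid against 8371 ± 2468 in CD24Neg), Xkr9 and Xkr8 were 4.61-fold, 9.54-fold and 4.57-fold lower in CD24Mid. The flippase gene Atp11a rose, with values of 143, 129, 153 and 179 in CD24Mid and 16.6, 19.3, 14.4 and 23.3 in CD24Neg. It was 8.09-fold higher in CD24Mid (log2 fold change 3.02, SE 0.21, limma adjusted p = 1.33e-06).

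Receptors and bridging proteins for phosphatidylserine split, with 2 lower, 1 higher and 4 not called of 7 testable genes out of 12. The shares among all tested genes were 34% lower and 34.3% higher. Mfge8, a secreted bridging protein, had 911 ± 161 in CD24Mid and 200.4 ± 58.6 in CD24Neg, 4.61-fold higher in CD24Mid. Mertk, a receptor kinase for apoptotic cells, was 3.87-fold lower. Stab1, a scavenger receptor, was 53.7-fold lower (24.04 ± 11.3 in CD24Mid against 1249.9 ± 540 in CD24Neg, limma adjusted p = 2.93e-06). Tyro3 had 279 ± 14.5 in CD24Mid and 223 ± 55.6 in CD24Neg (limma adjusted p = 0.084), and it passed without CD24Neg library 6 (limma adjusted p = 0.00726) and when scaled to totals (limma adjusted p = 0.000817, the lowest of 18 alternatives, with 1 as the highest).

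The list of Anxa1 receptors and cytosolic phospholipase A2 genes, enzymes that annexins inhibit in cell-free assays, had 3 testable genes of 9. The listed receptor genes Fpr1, Fpr2 and Fpr3 were not among the genes measured, so none of these receptors is described. The tested genes were the phospholipase genes Pla2g4a and Pla2g4c, and Alox5ap, which is of neither kind. Pla2g4a, which releases arachidonic acid from membranes, had values of 221, 384, 313 and 367 in CD24Mid and 10.3, 24.6, 21.8 and 28.3 in CD24Neg. It was 15.4-fold higher in CD24Mid, with no overlap (log2 fold change 3.95, SE 0.32, limma adjusted p = 2.85e-06). Pla2g4c did not differ detectably (69.0 ± 12.4 in CD24Mid and 70.8 ± 23.8 in CD24Neg). Alox5ap, which presents arachidonic acid to 5-lipoxygenase in leukocytes, had 18.8 ± 4.34 in CD24Mid and 9.83 ± 4.805 in CD24Neg (limma adjusted p = 0.0536). It passed in 5 of 18 alternatives, among them without CD24Neg library 2 (limma adjusted p = 0.021) and without CD24Mid library 5 (0.0468), in a range of 0.0113 to 0.36.

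**Figure D5:**
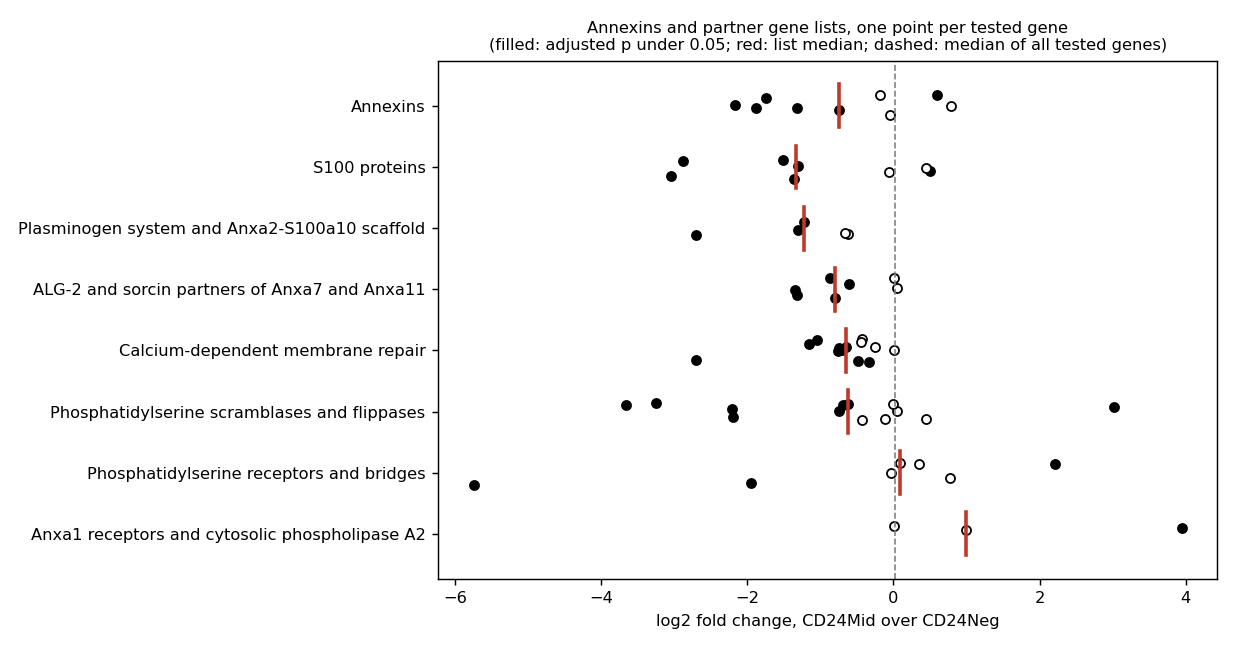
Log2 fold change, CD24Mid over CD24Neg (horizontal axis), of each tested gene of the annexins and of 7 partner lists (1 row per list). Filled points passed an adjusted p of 0.05, red bars are list medians (-0.74 for the annexins) and the dashed line is the median of all tested genes, 0.02. The annexin row includes Anxa9 and the scramblase and flippase row Plscr4, which passed the filter only through CD24Neg. Without them these medians are -0.46 and -0.53, against 0.01 for all tested genes that did not pass through 1 fraction alone.

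Likeness to a member was measured as the root-mean-square difference of log2 values, each gene centred on its own mean, over the 8 libraries. Closest to Anxa2 were Nek3 (0.102), Aldh1l1 (0.102) and Neu1 (0.119), a kinase, a folate enzyme and a lysosomal sialidase. Within 0.25 of Anxa2 lay 188 genes. Closest to Anxa5 were 8430429K09Rik (0.0499), Smarce1 (0.0684), a chromatin remodelling subunit, and Sephs1 (0.0693), a homologue of selenophosphate synthetase, and 1546 genes lay within 0.25. The 8 libraries form 2 fractions and share their normalisation, so the measure is a description over points that are not independent.

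Some members share exonic bases with other annotated genes. Anxa2 shares 98 bases with the antisense gene Gm16144, Anxa11 113 with Anxa11os, Anxa4 75 with Gm44036, Anxa3 112 with Gm42603, and Anxa9 71 with Mindy1 and 94 with 6330562C20Rik. No source used here says whether counting used strand, so reads from these overlaps cannot be told apart.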

How the data were processed

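The signal values deposited by the authors are normalised expression estimates, 1 per Ensembl gene and library, per the file headers. Bowtie 0.12.8 and build NCBIM37 are named, per the submitters' processing notes, with annotation, estimation tool and scaling tool not given in the sources used here. Low values sat on even steps of 0.584 to 0.698 for CD24Mid, against 1.07 to 1.78 for CD24Neg, alike for short and long genes, so values are not per length and CD24Neg is less precise at low values. Depth is a library's total over its step. Only 52.1 to 54.8% of values under 20 steps lay within 0.1 steps of a rung, so whole reads were not recovered and no count model was the main test.

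Values were centred on the median ratio to the geometric mean. limma 3.58.1 under R 4.3.3 fitted log2(value + 0.5) with no covariate, with trend and robust variance and 6 residual degrees of freedom. Every adjusted p is limma's with Benjamini-Hochberg adjustment over all genes tested. Folds on this scale understate changes of low genes. P-values set the difference between the fractions against the spread between libraries of a fraction. The number of animals is not given, so this may not be the spread between animals. The design foresaw either counts or values without counts; the deposited values are the second kind, on a linear scale. The fit was tested on simulated data in which few genes changed and all genes had the same spread setting. In these data 68.3% of tested genes passed, a case that the simulation does not cover. Symbols and lengths came from GENCODE M21 (GRCm38), which named 21223 of 23318 identifiers. The members and lists were chosen with earlier results of these data known. All members, Anxa8 and Anxa10 were named whatever their result, with up to 4 genes per partner list by adjusted p plus 1 called gene in a missing direction, and the 3 genes closest to the called members with the largest change each way. Cd24a, markers and overlapping genes were named outside this rule. The 18 alternatives are planned settings except 1, voom weights on estimated reads, chosen after seeing the data; levels per kb were repeated with merged exon lengths.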

Additional observations from a re-analysis of the deposited data

Results flagged for a closer look

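A library stood apart from the other 3 of its fraction in 2 cases among the 70 groups of 4 libraries examined for the tested members and named partner genes. Chance gives about 1 such flag in 20 groups. Anxa5 was highest in CD24Mid library 3, at 134.3, against 110.6 to 112.6 in the other CD24Mid libraries. Anxa13 was lowest in CD24Neg library 8, at 1874, against 2416 to 2522 in the other CD24Neg libraries. Leaving out either library kept both calls.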

How the results depend on the processing

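Over 18 settings, Anxa2, Anxa3 and Anxa13 kept their direction and call, with log2 fold changes of -2.30 to -1.69, -2.15 to -1.47 and -1.90 to -1.31. The setting without centring could hardly differ from the chosen fit, because the median ratio was 1.01023 to 1.01036 in every library. It is therefore no separate check. The count of members higher in CD24Mid was 1 in the chosen fit, 0 with quantile normalization, 3 with totals without the 20 most abundant genes, 0 when tested against 1.5-fold, 2 without CD24Neg libraries 2 and 8, and 2 with voom weights, which were chosen after seeing the data. The count lower was 5 in the chosen fit, 4 with quantile normalization, 3 in the test against 1.5-fold and 5 in the other settings. Under totals, 6497 genes were higher and 2842 lower among all tested genes, and 11 partner genes were higher. The test against 1.5-fold left 2430 genes higher and 2360 lower, and 16 partner genes lower. With merged exon lengths, Anxa4 held 45.5% of the family in CD24Mid and 33.9% in CD24Neg, and Anxa2 held 16.7% in CD24Mid and 33.3% in CD24Neg.

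The log2 fold change changed sign for Anxa7 with quantile normalization (0.19), under totals (0.38), without CD24Neg library 2 (0.034), without CD24Neg library 4 (0.0037) and without CD24Mid library 5 (0.0002). It did so for Anxa11 with quantile normalization (0.29) and under totals (0.25), and for Pla2g4c with quantile normalization (-0.30), without CD24Neg library 4 (-0.06), without CD24Neg library 6 (-0.16) and without CD24Mid library 7 (-0.11). Over all omissions of 1 library the range was -0.15 to 0.034 for Anxa7 and -0.16 to 0.20 for Pla2g4c. The cause was not tested.

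Leaving out each library in turn gave 4143 to 4322 genes higher and 4078 to 4393 lower, 1 to 2 members higher and 5 lower, and 3 to 5 partner genes higher and 29 to 31 lower. For Anxa4 the share spanned 50.3 to 52.1% across CD24Mid, against 37.0 to 38.0% across CD24Neg, and for Anxa2 20.3 to 22.1% across CD24Mid, against 40.2 to 42.1% across CD24Neg. The labels give no pairing between the fractions, whose title numbers differ, so the fit used none. Whether libraries of the fractions came from the same animals is not known. Depth limits Anxa1, Anxa8 and Anxa10, which stayed near or below 1 read, and Anxa9, which rests on few reads.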
